A study of Mus musculus with 15 samples.

Results

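Keratins are the intermediate filament proteins of epithelial cells, and 10 of them were followed here through mouse renal tumors: KRT5, KRT7, KRT8 and KRT80 of type II, and KRT14, KRT17, KRT18, KRT19, KRT20 and KRT23 of type I. They were taken by symbol, and all 10 were found among the 24891 genes kept, which held 55 keratins in all. RNA sequencing was done on 15 libraries in 5 groups of 3. All tumors grew from Tsc2-deficient 105K cells, a mouse kidney tumor cell line, placed with matrigel under the flank skin of 6-week-old male wild-type C57BL/6J mice. Tsc2 is a subunit of the complex that restrains mTORC1, and its loss was shared by every group. The cells carried either a control shRNA (sh-NC) or an shRNA to B7-H3, the checkpoint protein encoded by Cd276, as transduced pools and not single clones. Whole tumor tissue (bulk) was sequenced for sh-NC and sh-B7-H3 (1). Sorted tumor cells were sequenced for these and for a further shRNA to B7-H3, sh-B7-H3 (2). The sorted cells were what was left after magnetic removal of host cells, so nothing positively selected them as tumor cells. The hosts kept their immune systems and the bulk tissue kept its stroma.

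A keratin filament is built from pairs of 1 type I and 1 type II chain, so each cell needs a partner of the other type for every chain it makes. KRT8 and KRT18 form the pair of simple epithelia, the single-layered linings that include the kidney tubule, and KRT7 and KRT19 join them in ducts. KRT5 with KRT14 is the pair of basal cells in stratified epithelia, KRT16 and KRT17 are made by skin cells under stress and in healing wounds, and KRT20 is known from gut lining, from the surface of the urothelium and from injured kidney tubules. Filaments are tied to cell junctions by plakins such as DSP, PPL and EVPL. Loss of keratins with gain of VIM, the filament protein of mesenchymal cells, is a known feature of cells that leave the epithelial state.

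The genes lie in a pair of clusters (build GRCm38.p6, RefSeq; coordinates are printed for the promoters below). All type II members are on chromosome 15, and all type I members except KRT18 are on chromosome 11. KRT18 sits 23.9 kb from KRT8, at the edge of the type II cluster. KRT16, which shares most of its sequence with KRT14 and KRT17, lies 38.6 kb from KRT14 and 7.31 kb from KRT17. Because these paralogs are nearly identical in places and how shared reads were assigned is not given in the sources used here, the split of reads among KRT14, KRT16 and KRT17 is uncertain. RefSeq promoter windows were matched for 7 of the 10 members, KRT17, KRT19 and KRT80 having no entry. The window listed for KRT14 started inside the gene and was not used. The other 6 are shown around the start because each held a TATA-like box there, in capitals, on the gene's strand.

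KRT8 (chr15:102004326-102004355, minus strand): ggcctcttctttTATAAAgggccttcgctg
KRT18 (chr15:102028184-102028213, plus strand): cctcccgcggcgATATAAcaacaggtcgag
KRT7 (chr15:101412384-101412413, plus strand): ccgcatggaggaATAAAAggtcgcagactg
KRT20 (chr11:99438165-99438194, minus strand): tctcttgaactcTATAAAaggtcatctcca
KRT5 (chr15:101712917-101712946, minus strand): acttctaaggggATAAAAggggacctcaaa
KRT23 (chr11:99493134-99493163, minus strand): acagcaaagggcATAAAAccatctcaagca

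The boxes searched were TATAAA, its variant ATAAAA and the further variant ATATAA, which can overlap each other. On the gene's strand, 6.69% of 32851 RefSeq promoter windows held at least 1 of them starting between 60 bases before and 20 bases after the listed start. In KRT20, KRT5 and KRT23 the box began 29, 29 and 31 bases before the listed start, and in KRT18 it began 20 bases before. In KRT7 and KRT8 it began only 7 bases and 1 base before the start that RefSeq lists. The GENCODE starts differ from the RefSeq ones for all 6 genes, most for KRT7. The stretches printed for KRT7, KRT8 and KRT18 lie inside the GENCODE genes, so their boxes fall past the GENCODE starts. The binding sites of interferon-driven factors, GAS (TTCNNNGAA, in 8.3% of windows) and the ISRE (in 3.44%), and of AP-1 (TGANTCA, in 7.81%), searched on both strands, matched in none of these 6 windows. The motifs were chosen after the sequences had been seen, and a match or its absence is a description of these letters alone.

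All levels below are scaled FPKM, the deposited FPKM (fragments per length of transcript and per total of fragments) divided by a factor per library, so that they can be compared between genes and libraries. Differences were tested with limma on log2(scaled FPKM + 1), where the added 1 understates the change of low genes, over every gene that reached 1 scaled FPKM in 3 of the libraries compared. A gene passed at an adjusted p under 0.05. Libraries of a group correlated at r from 0.953 to 0.995 and no 2 were identical, but nothing says whether they came from separate mice, so p-values measure the spread between these libraries. Read totals are not part of an FPKM table. The relative depth recovered from the steps between low values ranged from 0.468 to 1. The RNA MIR6236 took 6.01% to 79.7% of summed FPKM and passed 50% in bulk sh-NC replicate 3, bulk sh-B7-H3 (1) replicate 2 and sorted sh-NC replicate 2. CD276, the target of the shRNAs, stood at 34.0, 20.004 and 17.3 scaled FPKM in sorted sh-NC and at 7.29, 13.96 and 11.5 in sorted sh-B7-H3 (1). It stood at 23.3, 25.4 and 25.7 in the sorted libraries labelled sh-B7-H3 (2), at 20.8, 23.2 and 23.5 in bulk sh-NC and at 22.3, 17.8 and 24.4 in the bulk libraries labelled sh-B7-H3 (1), so it was not lower in those 2 groups and every direction below is between libraries labelled in this way.

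These tumors expressed the keratins of simple epithelia, and the B7-H3 shRNA libraries held more of them. KRT7, KRT18 and KRT19 rose in sorted cells with either B7-H3 shRNA, KRT19 by 3.03-fold and 3.20-fold, KRT7 by 2.51-fold and 2.95-fold, and KRT18 by 1.88-fold and 2.10-fold. KRT8, the partner of KRT18, moved less, and KRT80 did not pass in either comparison. KRT14, a chain of basal cells, rose from a low level, and KRT5, its partner in skin, stayed close to 0. In bulk tumors KRT7, KRT14 and KRT19 also rose, while KRT8 stayed within the range of its controls.

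By count, 5 of 7 tested members were higher in sorted sh-B7-H3 (1) than in sorted sh-NC, where 9.03% of all 11163 genes tested were higher. For sorted sh-B7-H3 (2) it was 6 of 7, where 11.7% of all 11243 genes were higher. Both shRNAs together gave 5 of 7 against 12.6% of 11424 genes, and bulk sh-B7-H3 (1) gave 4 of 7 against 12.8% of 11800 genes. No member was lower in any of the 4 comparisons, where 4.38%, 7.44%, 7.92% and 8.52% of all genes were lower. The median log2 difference of the tested members was 1.33 and 1.56 in sorted cells and 0.72 in bulk, beside 0.002, 0.01 and 0.023 over all genes. Every shRNA library was above every control for 6 of 7 tested members in either sorted comparison, as for 16.7% and 20% of all genes, and for 5 of 7 in bulk, as for 24.4%. In bulk 1 of 7 members, KRT80, lay wholly below, as for 20.1% of genes. Without sorted sh-B7-H3 (1) replicate 2 the first count of members passed was 3, and without bulk sh-B7-H3 (1) replicate 1 or replicate 3 the bulk count was 2. The sorted sh-B7-H3 (2) count fell too, since leaving out any 1 of its libraries lost KRT8 and put KRT20 below the filter. There KRT7, KRT14, KRT18 and KRT19 still passed. KRT5, KRT17 and KRT23 were below the filter in every comparison. KRT20 passed it only through the B7-H3 shRNA libraries, so it had to differ. The counts of members higher, the counts wholly above and the medians all include KRT20, which adds no support to them. The sorted comparisons share the 3 sh-NC libraries, so the shRNAs are not separate tests against control.

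**Figure D1:**
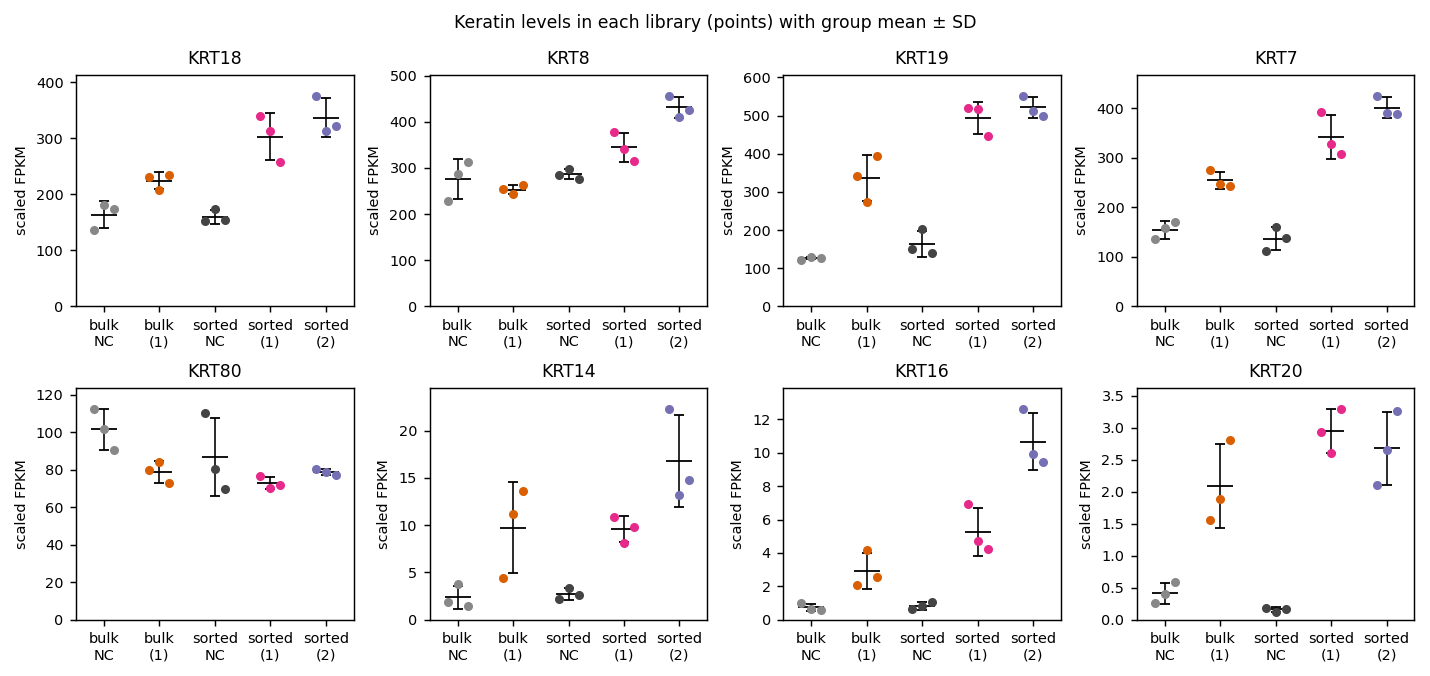
Scaled FPKM (vertical axes, each starting at 0) of 8 keratins in the 15 libraries, points being libraries and black bars the group mean ± SD of 3; NC is sh-NC, and (1) and (2) are the B7-H3 shRNAs. KRT19 in the 6 sorted B7-H3 shRNA libraries lay between 446 and 552, above all 3 sorted sh-NC libraries, whereas KRT80 overlapped between these groups.

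KRT18 was 152, 173 and 154 scaled FPKM in the 3 sorted sh-NC libraries, 339, 313 and 258 in sorted sh-B7-H3 (1), and 376, 314 and 321 in sorted sh-B7-H3 (2). All 6 knockdown-labelled libraries were above all 3 controls, and the 2 shRNAs overlapped each other. In bulk tumors it was 136, 182 and 175 in sh-NC and 232, 207 and 235 in sh-B7-H3 (1), again with no overlap. As a type I chain, KRT18 cannot assemble without a type II partner such as KRT8 or KRT7. Its log2 difference was 0.91 ± 0.16 (SE, adjusted p = 0.00745, limma) for sorted sh-B7-H3 (1), 1.07 ± 0.15 (adjusted p = 0.00205) for sorted sh-B7-H3 (2) and 0.46 ± 0.14 (adjusted p = 0.0524) for bulk. The bulk difference therefore missed the threshold. Without sorted sh-B7-H3 (1) replicate 2 the first of these had an adjusted p of 0.0505, and without bulk sh-B7-H3 (1) replicate 2 the bulk one had 0.0371 at a log2 difference of 0.52. The bulk one passed in 4 of 14 alternatives, with adjusted p from 0.0285 to 0.449 (limma).

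KRT8 was the most abundant keratin in both control groups. It was 285, 298 and 276.03 in sorted sh-NC, 378, 341 and 316 in sorted sh-B7-H3 (1), and 457, 410 and 426 in sorted sh-B7-H3 (2). The 3 groups did not overlap, and sh-B7-H3 (2) was the highest. Bulk tumors had 227, 287 and 313 in sh-NC and 253, 242 and 263 in sh-B7-H3 (1), where the libraries overlapped. The log2 difference was 0.26 (adjusted p = 0.356, limma) for sorted sh-B7-H3 (1), with a 95% interval from -0.09 to 0.62, and 0.59 ± 0.15 (SE, adjusted p = 0.0277) for sorted sh-B7-H3 (2). In bulk it was -0.11 (adjusted p = 0.573), with an interval from -0.44 to 0.21. The sorted sh-B7-H3 (2) call was lost on leaving out sorted sh-NC replicate 2 (adjusted p = 0.0911) or replicate 3 (0.0595), or sh-B7-H3 (2) replicate 1 (0.102), 2 (0.122) or 3 (0.142). Both shRNAs together differed from sh-NC by 0.43 (adjusted p = 0.0514), and by 0.48 (adjusted p = 0.0328) without sh-B7-H3 (1) replicate 3. This difference passed in 4 of 17 alternatives, with adjusted p from 0.00906 to 0.122 (limma).

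KRT19, the shortest keratin, which lacks most of the usual tail, had the largest rise among the abundant ones. It was 150, 203 and 139 scaled FPKM in sorted sh-NC, 520, 517 and 446 in sorted sh-B7-H3 (1), and 552, 512 and 499 in sorted sh-B7-H3 (2). Bulk tumors held 123, 128 and 128 in sh-NC and 342, 273 and 395 in sh-B7-H3 (1). Every B7-H3 shRNA library was above every sh-NC library, whichever material they came from. The log2 difference was 1.60 ± 0.19 (SE, adjusted p = 0.00088, limma) and 1.68 ± 0.18 (adjusted p = 0.000622) for the 2 shRNAs in sorted cells, and 1.39 ± 0.14 (adjusted p = 0.00304) in bulk. It passed under each of the 14 alternatives run for each of these comparisons, with log2 differences from 1.27 to 1.91.

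KRT7, a type II chain of ducts and other glandular linings, was 113, 160 and 138 in sorted sh-NC, 393, 328 and 307 in sorted sh-B7-H3 (1), and 426, 391 and 388 in sorted sh-B7-H3 (2). In bulk it was 135, 159 and 171 in sh-NC and 275, 247 and 243 in sh-B7-H3 (1). As with KRT19, no B7-H3 shRNA library reached down into the range of sh-NC. The log2 difference was 1.33 ± 0.18 (SE, adjusted p = 0.00204, limma) and 1.56 ± 0.17 (adjusted p = 0.000622) in sorted cells, and 0.72 ± 0.12 (adjusted p = 0.00961) in bulk. The bulk call was lost without bulk sh-B7-H3 (1) replicate 1 (adjusted p = 0.0609) and with the FPKM left as deposited (adjusted p = 0.106).

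KRT80, a type II chain found in many epithelia, behaved unlike the other abundant members. It was 110, 80.6 and 69.8 in sorted sh-NC, 76.6, 70.2 and 72.0 in sorted sh-B7-H3 (1), and 80.6, 78.8 and 77.4 in sorted sh-B7-H3 (2). Control replicate 1 was high, replicate 2 lay within the range of the shRNA libraries and replicate 3 just below it. In bulk it was 112, 102 and 90.7 in sh-NC and 79.6, 84.0 and 72.7 in sh-B7-H3 (1), with all 3 shRNA libraries lower. The log2 difference was -0.22 (adjusted p = 0.534, limma; 95% interval -0.64 to 0.20) and -0.11 (adjusted p = 0.722; -0.53 to 0.31) in sorted cells, and -0.36 (adjusted p = 0.0595) in bulk. The bulk difference passed without bulk sh-B7-H3 (1) replicate 2, at -0.41 (adjusted p = 0.0416), and without the 2 bulk libraries above 50% MIR6236, at -0.48 (adjusted p = 0.0387).

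**Figure D2:**
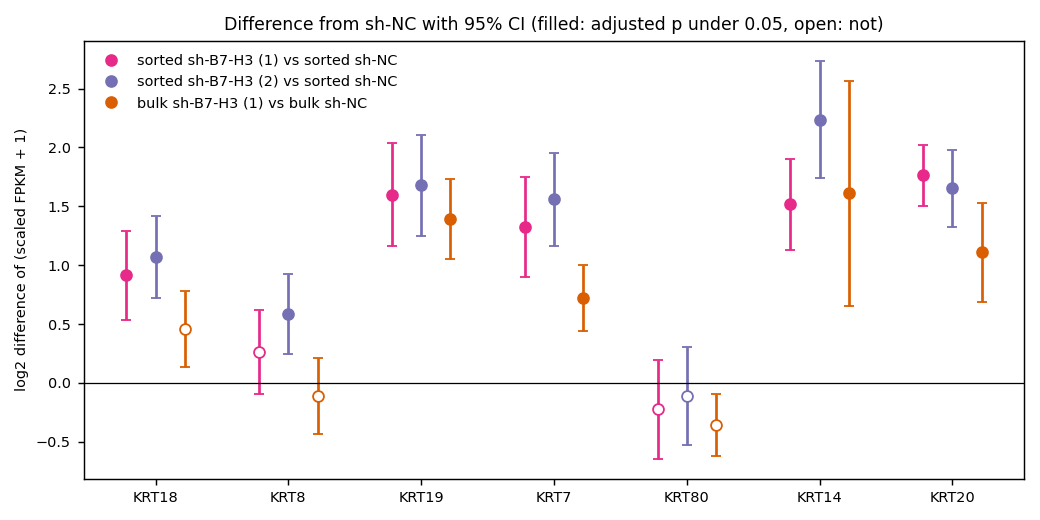
Log2 difference of (scaled FPKM + 1) from sh-NC (vertical axis) with its 95% confidence interval for the 7 tested members, in sorted sh-B7-H3 (1), sorted sh-B7-H3 (2) and bulk sh-B7-H3 (1), each with 3 libraries against 3; filled points passed an adjusted p of 0.05. KRT19 lay at 1.60, 1.68 and 1.39, while the intervals of KRT8 in sorted sh-B7-H3 (1) and in bulk and of KRT80 in sorted cells spanned 0; KRT20 passed the filter only through the shRNA groups.

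KRT14 was far lower than these chains. It was 2.15, 3.39 and 2.61 scaled FPKM in sorted sh-NC, 10.9, 8.12 and 9.83 in sorted sh-B7-H3 (1), and 22.3, 13.2 and 14.8 in sorted sh-B7-H3 (2). The 3 groups did not overlap and sh-B7-H3 (2) was the highest. The bulk levels were 1.92, 3.75 and 1.45 in sh-NC and 4.44, 11.2 and 13.7 in sh-B7-H3 (1), with replicate 1 of the shRNA close above the highest control. The log2 difference was 1.52 ± 0.17 (SE, adjusted p = 0.000627, limma) and 2.24 ± 0.22 (adjusted p = 0.000327) in sorted cells, and 1.61 ± 0.40 (adjusted p = 0.0341) in bulk. The bulk call was lost without bulk sh-NC replicate 1 (adjusted p = 0.0876) or replicate 3 (0.12), without bulk sh-B7-H3 (1) replicate 3 (0.0715) and without the filter on low values (0.0727). It was also lost without the 2 bulk libraries above 50% MIR6236, at a log2 difference of 1.26 (adjusted p = 0.112).

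KRT5, the type II chain that pairs with KRT14 in skin, was at 0 in 8 of the 15 libraries and never above 0.427, its value in sorted sh-B7-H3 (2) replicate 3. From the step between its low values it rested on an estimated 1 read in each sh-NC group and in bulk sh-B7-H3 (1), 15 in sorted sh-B7-H3 (1) and 34 in sorted sh-B7-H3 (2), each over 3 libraries. In sorted sh-B7-H3 (1) the estimate was whole in only 2 of 3 libraries, and KRT5 was below the filter. KRT17 was at most 0.0263 in bulk sh-NC and between 0.0726 and 0.0970 in bulk sh-B7-H3 (1). It was between 0.0610 and 0.0935 in sorted sh-NC, 0.201, 0.0105 and 0.118 in sorted sh-B7-H3 (1), and 0.330, 1.36 and 0.829 in sorted sh-B7-H3 (2). Only the last group lay wholly above the sorted controls, on an estimated 181 reads against 22, and only 1 of its libraries passed 1 scaled FPKM. Without the filter on low values KRT17 did not pass there (adjusted p = 0.0823, limma), but did in bulk (log2 difference 0.10, adjusted p = 0.0351) and, as lower in bulk, between the controls (-0.09, adjusted p = 0.0298), on the few reads given above.

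KRT20 was 0.188, 0.120 and 0.173 scaled FPKM in sorted sh-NC, 2.93, 2.61 and 3.30 in sorted sh-B7-H3 (1), and 2.11, 2.66 and 3.26 in sorted sh-B7-H3 (2). In bulk it was 0.264, 0.396 and 0.590 in sh-NC and 1.55, 1.89 and 2.82 in sh-B7-H3 (1). Every shRNA library was thus higher than every control library, and the lowest values of all were in the sorted controls. The estimated reads behind these levels were 29, 536 and 379 for the 3 sorted groups and 52 and 234 for the bulk groups. The fitted log2 difference was 1.76 ± 0.11 (SE, adjusted p = 7.34e-05, limma), 1.65 ± 0.14 (adjusted p = 0.000192) and 1.11 ± 0.18 (adjusted p = 0.00886) in sorted sh-B7-H3 (1), sorted sh-B7-H3 (2) and bulk. With 0.1 added in place of 1 the first of these became 3.55, so its size depends on the added value. Leaving out any 1 library of a shRNA group put KRT20 below the filter of that comparison.

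KRT23, a type I chain known from gut lining, was 0.343, 0.453 and 0.243 in bulk sh-NC and 0.584, 0.525 and 0.498 in bulk sh-B7-H3 (1). It was 0.113, 0.0621 and 0.224 in sorted sh-NC, 0.135, 0.189 and 0.310 in sorted sh-B7-H3 (1), and 0.120, 0 and 0.269 in sorted sh-B7-H3 (2). Its highest values were thus in bulk, and the 3 sorted groups overlapped. It rested on 15 to 48 estimated reads per group and was below the filter. Without the filter, it passed in limma only between bulk and sorted sh-B7-H3 (1), at a log2 difference of 0.34 (adjusted p = 0.0157).

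**Figure D3:**
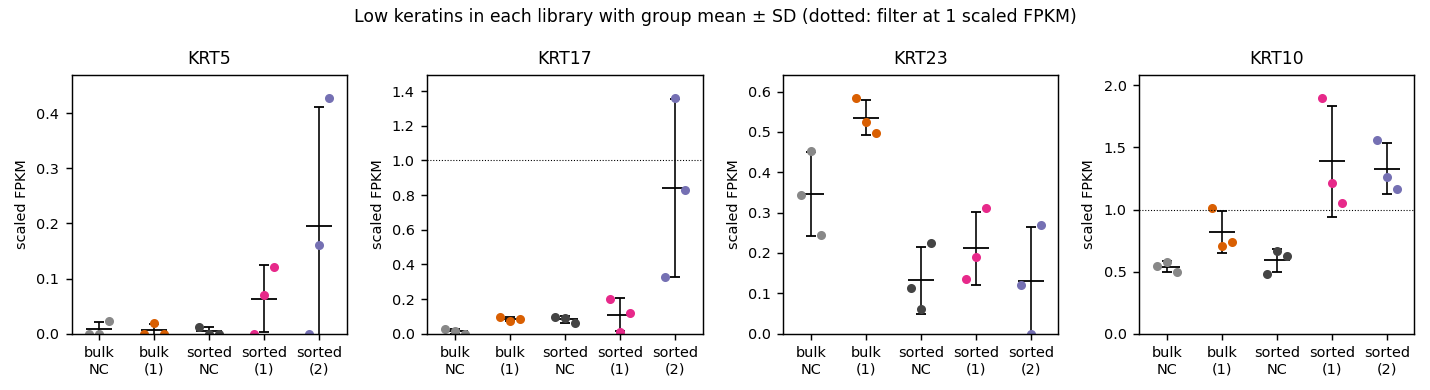
Scaled FPKM (vertical axes, each on its own scale from 0) of KRT5, KRT17, KRT23 and KRT10 in the 15 libraries, with the group mean ± SD of 3 in black and the filter of 1 scaled FPKM dotted where it falls within the panel. KRT17 passed 1 in a single library, at 1.36, and KRT23 was higher in bulk than in most sorted libraries, its highest value being 0.584.

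The 2 shRNAs in sorted cells were compared with each other. None of 7 members passed in limma, where 3.4% of 11239 genes did, and 2 had an unadjusted p under 0.05. Same-numbered libraries of these 2 groups deviated together, at r of 0.514, 0.431 and 0.443, and with the replicate number as a block KRT8 (log2 difference of sh-B7-H3 (1) from sh-B7-H3 (2) -0.32, adjusted p = 0.0356) and KRT14 (-0.72, adjusted p = 0.0205) passed. Without the block their adjusted p was 0.157 and 0.0867. Both were lower in all 3 sh-B7-H3 (1) libraries, as were 3 of 7 members in all, KRT80 being the other, beside 13.9% of genes. The difference was -0.23 (95% interval -0.52 to 0.05) for KRT7, -0.16 (-0.48 to 0.16) for KRT18, -0.08 (-0.34 to 0.18) for KRT19, 0.11 (-0.22 to 0.43) for KRT20 and -0.11 (-0.31 to 0.09) for KRT80.

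Bulk tissue holds host cells beside tumor cells, and in such tissue fewer cells of a type and less RNA per cell cannot be told apart. In the controls, none of 6 tested members differed between bulk and sorted libraries in limma, where 10.4% of 11418 genes were higher in bulk and 6.48% lower, and none had an unadjusted p under 0.05. KRT19 came closest, at a log2 difference of -0.36 (adjusted p = 0.188), and was 1 of 6 members lower in every bulk library, as were 16.9% of genes. Without sorted sh-NC replicate 1, the library with the high KRT80, KRT80 passed at 0.43 (adjusted p = 0.0419). With sh-B7-H3 (1), 4 of 7 members were lower in bulk, where 17.1% of 11677 genes were lower and 21.1% higher. These were KRT7 (-0.42, adjusted p = 0.0392), KRT8 (-0.44, adjusted p = 0.0222), KRT18 (-0.42, adjusted p = 0.0421) and KRT19 (-0.56, adjusted p = 0.0285), and all 4 were lower in every bulk library, as were 25% of genes. Leaving out bulk sh-B7-H3 (1) replicate 1, sorted sh-B7-H3 (1) replicate 1 or sorted sh-B7-H3 (1) replicate 2 brought this count to 0, leaving out bulk sh-B7-H3 (1) replicate 2 brought it to 1, and quantile normalization to 2.

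Whether the effect of sh-B7-H3 (1) itself differed between sorted cells and bulk was tested as an interaction. None of 7 members passed in limma, where 0.464% of 12062 genes did, and 3 had an unadjusted p under 0.05. The effect in sorted cells minus that in bulk was 0.61 (95% interval 0.13 to 1.08, adjusted p = 0.268) for KRT7, 0.65 (adjusted p = 0.24) for KRT20 and 0.45 (adjusted p = 0.339) for KRT18. It was 0.38 for KRT8, 0.21 for KRT19, 0.14 for KRT80 and -0.09 for KRT14.

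The makeup of the keratin transcripts also differed between the groups, which is given as a description. All 55 keratins summed to 839 ± 72.4 (SD, n = 3) scaled FPKM in sorted sh-NC, 1578 ± 156 in sorted sh-B7-H3 (1) and 1803 ± 111 in sorted sh-B7-H3 (2). In bulk the sum was 827 ± 78.2 in sh-NC and 1164 ± 81.7 in sh-B7-H3 (1). KRT7, KRT8, KRT18, KRT19 and KRT80 made up 97.9% to 99.6% of it in every library. KRT8 held 34.2% ± 1.64 (SD, n = 3) of the sum in sorted sh-NC and 21.9% ± 0.386 and 23.9% ± 0.475 in the sorted shRNA groups, while KRT19 went from 19.4% ± 2.31 to 31.4% ± 1.25 and 28.9% ± 0.536. KRT80 went from 10.4% ± 2.71 to 4.65% ± 0.376 and 4.38% ± 0.189. The share of KRT18 lay between 18.1% and 21.1% in all 15 libraries.

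Within the pair of simple epithelia, the ratio of KRT8 to KRT18 was 1.80 ± 0.0822 (SD, n = 3) in sorted sh-NC and 1.68 ± 0.109 in bulk sh-NC. It was 1.14 ± 0.0712 in sorted sh-B7-H3 (1), 1.28 ± 0.0603 in sorted sh-B7-H3 (2) and 1.13 ± 0.0384 in bulk sh-B7-H3 (1). The 6 sh-NC libraries lay between 1.58 and 1.88 and the 9 shRNA libraries between 1.09 and 1.33, without overlap. The ratio of KRT7 to KRT8 was 0.477 ± 0.0739 and 0.565 ± 0.0270 in sorted and bulk sh-NC, and 0.992 ± 0.0411, 0.932 ± 0.0213 and 1.01 ± 0.0799 in sorted sh-B7-H3 (1), sorted sh-B7-H3 (2) and bulk sh-B7-H3 (1). Summed over the members, type II over type I transcripts stood at 1.57 ± 0.136 in sorted sh-NC and 1.82 ± 0.0745 in bulk sh-NC. It stood at 0.940 ± 0.0515, 1.04 ± 0.0264 and 1.03 ± 0.133 in the shRNA groups in the same order. Transcripts of both types were thus near a 1 to 1 ratio in the libraries labelled sh-B7-H3. The ratios were chosen after the levels had been seen and are given without a test.

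**Figure D4:**
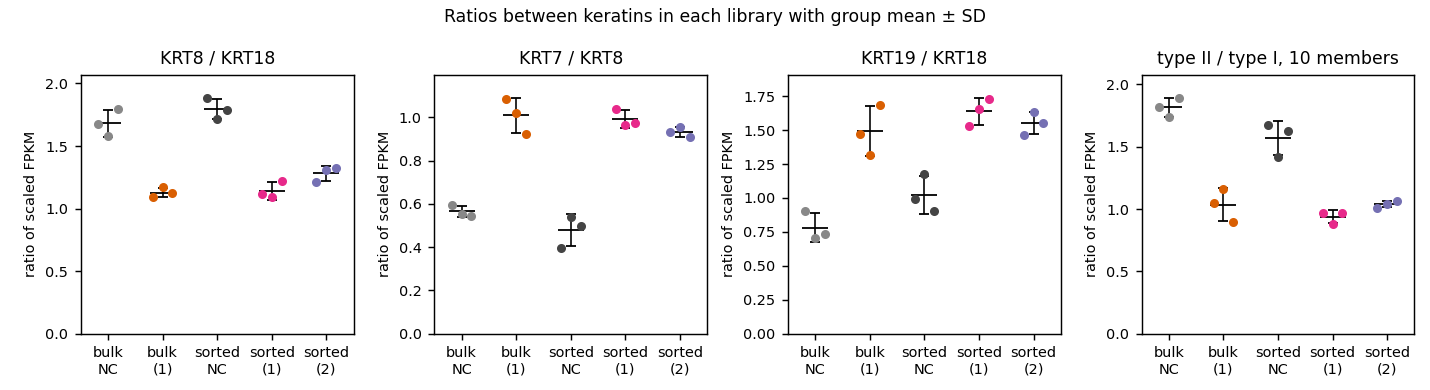
Ratios of scaled FPKM (vertical axes from 0, no unit) between keratins in the 15 libraries, with the group mean ± SD of 3 in black; the last panel sums the 4 type II members over the 6 type I members. KRT8 over KRT18 lay between 1.58 and 1.88 in the sh-NC libraries and between 1.09 and 1.33 in the shRNA libraries, of bulk and sorted material alike.

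The order of the levels shifted accordingly. In sorted sh-NC it was KRT8 (286 ± 10.9, SD, n = 3, in scaled FPKM), KRT19 (164 ± 34.2), KRT18 (160 ± 11.7), KRT7 (137 ± 23.7) and KRT80 (86.9 ± 20.9), and KRT19, KRT18 and KRT7 lay within each other's spread. In sorted sh-B7-H3 (2) it was KRT19 (521 ± 27.7), KRT8 (431 ± 23.8), KRT7 (402 ± 21.2), KRT18 (337 ± 34.2) and KRT80 (78.9 ± 1.64), with KRT8 and KRT7 overlapping between libraries. Sorted sh-B7-H3 (1) also had KRT19 first (494 ± 41.9), and its KRT8 (345 ± 31.3), KRT7 (343 ± 44.5) and KRT18 (303 ± 41.4) overlapped. In bulk sh-NC KRT8 (275.8 ± 44.0) led and KRT18 (164 ± 24.9) and KRT7 (155 ± 17.998), which overlapped, and then KRT19 (126 ± 3.099) followed. In bulk sh-B7-H3 (1) KRT19 (337 ± 61.0) led, KRT7 (255 ± 17.2) and KRT8 (253 ± 10.3) overlapped, and KRT18 (225 ± 14.95) lay below both in all 3 libraries. KRT14, KRT20, KRT23, KRT17 and KRT5 followed far below, with KRT14 always the first of them. In sorted sh-B7-H3 (2), however, the means of KRT17 (0.839) and KRT5 (0.196) were above that of KRT23 (0.130).

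Of the 45 other keratins, 16 were at 0 in every library and 27 stayed under 1, the highest of these at 0.305. The other 2 were KRT10 and KRT16. KRT16 was 0.611, 0.813 and 1.078 scaled FPKM in sorted sh-NC, 6.91, 4.69 and 4.22 in sorted sh-B7-H3 (1), and 12.6, 9.91 and 9.45 in sorted sh-B7-H3 (2). It was 0.989, 0.626 and 0.600 in bulk sh-NC and 2.07, 4.14 and 2.56 in bulk sh-B7-H3 (1). The 3 sorted groups were ordered as for KRT14, without overlap, whereas bulk sh-B7-H3 (1) lay wholly below sorted sh-B7-H3 (1) for KRT16 and overlapped it for KRT14. Its log2 difference was 1.76 (adjusted p = 0.000462, limma), 2.67 (adjusted p = 5.91e-05) and 1.15 (adjusted p = 0.0130) for sorted sh-B7-H3 (1), sorted sh-B7-H3 (2) and bulk, and -0.91 (adjusted p = 0.0380) between the 2 shRNAs. Between the 2 shRNAs every library of both groups was above 1 scaled FPKM. Against sh-NC KRT16 passed the filter only through its higher groups, and its reads may be split with those of KRT14. KRT10, a chain of the upper layers of skin, was 0.481, 0.663 and 0.624 in sorted sh-NC, 1.90, 1.21 and 1.05 in sorted sh-B7-H3 (1) and 1.56, 1.26 and 1.17 in sorted sh-B7-H3 (2), and likewise passed the filter only through its higher groups.

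The proteins that hold keratin filaments to desmosomes and to other structures were taken as a list of 12 genes. For lists, values in sorted cells are those of both shRNAs together against sh-NC unless a group is named. Of all genes tested, 12.6% were higher and 7.92% lower in sorted cells, and 12.8% and 8.52% in bulk. In sorted sh-B7-H3 (2) these shares were 11.7% and 7.44%. Of the 12 linker genes tested in sorted cells 5 were higher and none lower, with a median log2 difference of 0.39 beside 0.007 over all genes. In bulk 5 of 11 were higher and none lower. PKP3, a plakophilin of desmosomes, rose by 2.33 (adjusted p = 7.7e-07, limma) in sorted cells and by 1.68 (adjusted p = 0.00308) in bulk. EVPL and PPL, a pair of plakins, rose by 1.61 (adjusted p = 8.19e-05) and 1.36 (adjusted p = 4.64e-05) in sorted cells and by 1.83 (adjusted p = 0.00212) and 1.47 (adjusted p = 0.00286) in bulk. PKP1 rose by 1.12 (adjusted p = 0.00572), and FAM83H, a regulator of keratin filament arrangement, by 0.93 (adjusted p = 0.000618). EVPL and PKP1 averaged under 1 scaled FPKM in sorted sh-NC, at 0.388 ± 0.173 and 0.124 ± 0.0540 (SD over 3 libraries), so they passed the filter through the shRNA groups. DSP, the plakin of every desmosome, rose in bulk by 1.20 (adjusted p = 0.00568), whereas in sorted cells its difference was 0.51 (adjusted p = 0.186).

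Filament proteins of other families were counted in a list of 15, of which 6 were tested. VIM fell. Sorted sh-NC libraries held 1400 ± 145 scaled FPKM of it (SD, n = 3), those with sh-B7-H3 (1) 468 ± 99.2 and those with sh-B7-H3 (2) 372 ± 51.2, and in bulk it went from 1194 ± 107 to 507 ± 89.8. The log2 difference was -1.75 (adjusted p = 7.02e-05, limma) with both shRNAs in sorted cells and -1.25 (adjusted p = 0.00504) in bulk. NES, a filament protein of progenitor cells, fell by 1.71 (adjusted p = 0.00102) in sorted cells, and in bulk its difference was -0.68 (adjusted p = 0.0600). LMNB1 of the nuclear lamina rose by 0.50 (adjusted p = 0.0221) in sorted cells. In sorted sh-NC VIM alone thus exceeded the sum of all keratins, and in every shRNA group the keratin sum exceeded VIM.

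Genes of general epithelial identity moved the same way as the keratins. Of a list of 12, 11 were higher in sorted cells and 9 in bulk, beside 12.6% and 12.8% of all genes, and none was lower. CLDN7, a claudin, rose by 3.45 (adjusted p = 7.21e-07, limma) in sorted cells, and EPCAM by 2.90 (adjusted p = 2.47e-06), whose level was 21.6 ± 5.25 (SD, n = 3) with sh-NC and 148 ± 21.1 and 187 ± 29.8 with the shRNAs. CDH1, the epithelial cadherin, was the exception at -0.46 (adjusted p = 0.0854). Of 10 genes of basal epithelium, 8 were tested and 7 were higher in both materials, among them the laminin-332 chains LAMB3 (2.90, adjusted p = 1.15e-06) and LAMA3 (2.77, adjusted p = 1.85e-05). TRP63 and COL17A1, the defining genes of basal cells, never exceeded 0.379 and 0.0981. Of 10 kidney epithelium genes, 9 were tested with both shRNAs together, where none was higher and EMX2 was lower (-0.61, adjusted p = 0.0127). In sorted sh-B7-H3 (2) alone 1 of 9 tested was higher and 1 was lower, with a median log2 difference of 0.04. The higher one was HAVCR1, a gene of injured tubules (4.98, adjusted p = 0.000589, limma). It passed the filter only through that group, being at most 0.947 in sorted sh-NC. With both shRNAs PAX8, the lineage factor of kidney tubules, stood at -0.37 (adjusted p = 0.112).

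The tumors grew under skin, and markers of other epithelia were followed for that reason. The 14 skin epidermis genes found summed to 3.82 to 7.48 scaled FPKM in sorted sh-NC and to 19.0 to 31.9 in the sorted shRNA groups, and to 5.01 to 6.85 and 13.7 to 21.6 in bulk sh-NC and sh-B7-H3 (1). Of these, 6 were tested in sorted cells and 3 were higher, namely IVL (2.46, adjusted p = 0.000506, limma), CASP14 (1.14, adjusted p = 0.00181) and KRT10 (0.56, adjusted p = 0.0111). CASP14 and KRT10 were under 1 scaled FPKM in every sorted sh-NC library and passed the filter only through the shRNA libraries, so their share of the count is a description, while IVL was above 1 in 2 of 3 controls. KRT1 and KRT2, partners of KRT10 in skin, were at most 0.0539 and at 0 in all 15 libraries. LOR and KRTDAP, other skin markers, were at most 0.283 and 0.291. The 10 hair follicle genes summed to at most 0.736 and none was tested. The 5 urothelium genes summed to at most 3.71, with UPK1B at most 0.0515 and UPK2 at most 0.492. UPK1A was at 0.320 ± 0.0692 (SD over 3 libraries) in sorted sh-NC and 1.51 ± 0.567 and 0.812 ± 0.288 in sorted sh-B7-H3 (1) and (2). Against sh-NC it was tested only with both shRNAs together, through the shRNA groups. Of 6 mesothelial genes 2 were tested in sorted cells, with a median log2 difference of 0.52. MSLN was higher (1.45, adjusted p = 0.00042, limma) and the other gene did not pass. The skin sums moved with KRT14, KRT16 and KRT20, and their part in these results was not tested.

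Leukocyte, endothelial and Y-linked genes marked 1 sorted library. A list of 10 leukocyte genes summed to 668 scaled FPKM in sorted sh-B7-H3 (2) replicate 1 and to 5.28 to 16.5 in the other sorted libraries, beside 517 to 1004 in bulk. Endothelial genes summed to 29.9 in the same library and to at most 1.99 in the other sorted ones, and Y-linked genes to 4.88 and at most 0.887. Without that library the KRT8 call was lost (adjusted p = 0.102, limma), KRT20 fell below the filter, and KRT7 (log2 difference 1.52, adjusted p = 0.00425), KRT18 (0.99, adjusted p = 0.0115), KRT19 (1.64, adjusted p = 0.00425) and KRT14 (2.02, adjusted p = 0.000848) still passed in sorted sh-B7-H3 (2). In bulk, fibroblast genes (6 of 8 tested) and skeletal muscle genes (7 of 11 tested) were higher in sh-B7-H3 (1), beside 12.8% of all genes. The part of these 2 lists in the bulk results was not tested. In sorted sh-B7-H3 (1), and with both shRNAs together, none of 7 fibroblast genes and none of 10 muscle genes passed. Muscle genes were present in every sorted group, however. They summed to 82.2 to 142 in sorted sh-NC and to 54.1 to 124 in the sorted shRNA libraries. In bulk they summed to 4.91 to 28.6 in sh-NC and to 54.1 to 954 in sh-B7-H3 (1). All 9 tested were lower in bulk than in sorted sh-NC, as were 6.48% of 11418 genes, and their origin was not tested. In sorted sh-B7-H3 (2) 3 of 7 fibroblast genes and 1 of 10 muscle genes were higher, beside 11.7% of all genes. The fibroblast genes were the collagens COL1A1 (1.48, adjusted p = 0.0277, limma), COL1A2 (1.71, adjusted p = 0.00992) and COL3A1 (1.57, adjusted p = 0.00423). The muscle gene was MYL1 (0.56, adjusted p = 0.0428). The fibroblast sum there was 128 to 187 beside 53.6 to 97.5 in sorted sh-NC, and its part in the sh-B7-H3 (2) results was not tested.

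**Figure D5:**
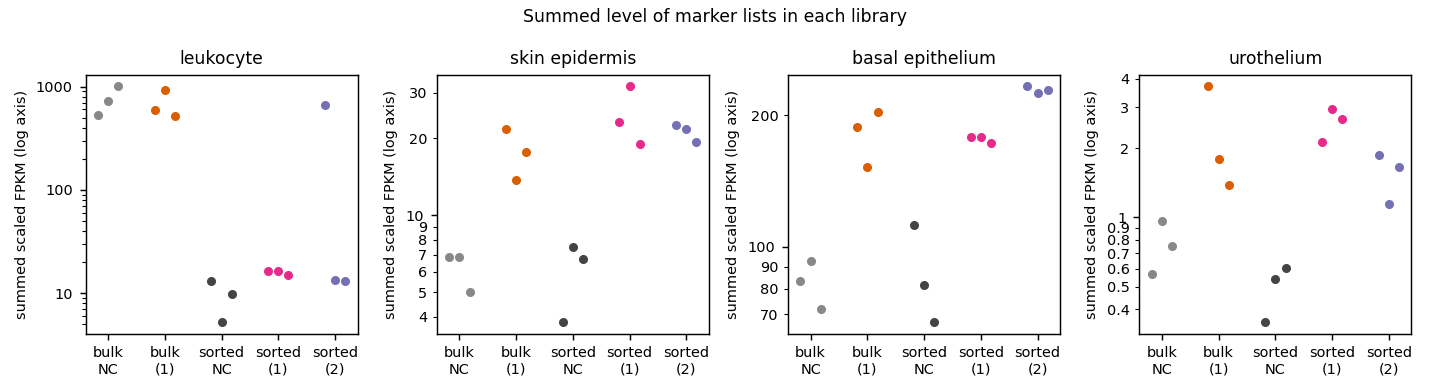
Summed scaled FPKM (vertical log axes) of 4 marker lists in each of the 15 libraries, points being libraries. The leukocyte sum of 1 sorted sh-B7-H3 (2) library, at 668, lay in the range of bulk tumors, and the skin and basal epithelium sums were higher in every shRNA library than in every sh-NC library.

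The genes whose profile over the 15 libraries was closest to each keratin were found by the root-mean-square (RMS) difference of centred log2 values, among 11604 genes, as a description. For KRT19 they were HOOK1 (0.16), ELMO3 (0.20) and ZFP185 (0.21). For KRT7 they were LIPG (0.18), DENND2D (0.19) and PLAU (0.19), and KRT18 came at rank 10. For KRT18 they were LRRC8E (0.14), ZDHHC13 (0.15) and PMM1 (0.16), with KRT7 at rank 29 and its partner KRT8 only at rank 231. KRT8 lay closest to FDPS (0.11), CENPM (0.12) and EIF2D (0.15), with KRT18 at rank 1470. KRT14 lay closest to PSAPL1 (0.32), EFNA3 (0.37) and TMEM54 (0.40), KRT16 being at rank 13 and KRT19 at rank 18. For KRT20 the closest were CNP (0.23), SPNS2 (0.24) and NECTIN2 (0.24), and for KRT80 USP4, MVP and DPAGT1 (each 0.10). A small difference is easier to reach for a gene that varies little, such as KRT80, whose log2 values had an SD of 0.21 against 0.84 for KRT19.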

How the data were processed

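The authors deposited 1 FPKM table of all 15 libraries (24917 entries) and a table of log2(FPKM + 1) of 1000 genes, 999 of which matched the first within 8.91e-08 and which was used for that check alone. The build in the submitters' processing notes is mm10. The aligner, annotation and read assignment are not given in the sources used here, and the labels and the study's methods name different library kits. After 26 symbols turned into dates were left out, each library's FPKM were scaled by its median ratio to the geometric mean of all libraries across 9872 genes (factors 0.65 to 1.18). The trend option of limma 3.58.1 (R 4.3.3) was used, and the model was fitted to the libraries compared, with Benjamini-Hochberg adjustment over all genes tested. The fit was tested on simulated data. Reads of low genes were estimated from steps between values and taken as whole within 0.05. The rule named the 10 keratins, other keratins with at least 1 scaled FPKM in 3 libraries, at most 4 genes per list with the largest changes, and the 3 closest profiles per keratin. DSP, FAM83H, CDH1, PAX8, KRT1, KRT2 and the other near-0 markers were named outside it, after their values were seen. The keratins and lists were chosen with earlier results of these data known. The main tests used no pairing, and the replicate block was an alternative in every comparison. Only for the 2 sorted shRNA groups did every correlation between deviations of same-numbered libraries pass 0.1. No label states that libraries were paired. Sorted sh-NC replicate 3 and sorted sh-B7-H3 (1) replicate 1 reached r = 0.637 without sharing a number, so such values cannot show that libraries are paired.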

Additional observations from a re-analysis of the deposited data

How the results depend on the processing

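KRT7, KRT14 and KRT19 kept their direction and passed the threshold under every alternative run in the 3 sorted comparisons with sh-NC, and KRT18 in all but 1. Of 811 alternative values for single keratins, 723 kept direction and side of the threshold, 46 lost the call, 18 gained it and 24 reversed. The number of keratins passed ranged, on leaving out 1 library, from 3 to 5 for sorted sh-B7-H3 (1), 0 to 0 between shRNAs, 2 to 5 in bulk, 0 to 1 for bulk against sorted sh-NC and 0 to 4 for bulk against sorted sh-B7-H3 (1). For sorted sh-B7-H3 (2), leaving out any 1 of its own libraries lost KRT8 and put KRT20 below the filter. Between shRNAs the number passed was 1 with quantile normalization and 2 with the replicate block. For bulk against sorted sh-NC it was 1 with no filter (KRT17), and for bulk against sorted sh-B7-H3 (1) it was 2 with quantile normalization, 2 with no filter (KRT8 and KRT23), 0 with the replicate block and 1 without the MIR6236-rich libraries, an alternative chosen after seeing the data.

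The replicate block, in comparisons whose numbers do not pair the samples (r from -0.66 to 0.51 over all 30 pairs, 8 over 0.1), left 5, 5, 5 and 4 keratins passed for sorted sh-B7-H3 (1), (2), both and bulk, and KRT8 in sorted sh-B7-H3 (2) then had an adjusted p of 0.126 in limma. Reversals all concerned differences that had not passed. FPKM as deposited, which moved the median of all genes by up to 0.23, gave KRT80 0.12 (sorted sh-B7-H3 (2)), 0.046 (both) and -0.19 (bulk against sorted sh-B7-H3 (1)), KRT18 -0.11 (bulk against sorted sh-NC) and KRT14 0.12 (interaction). KRT8 in bulk was 0.034 with quantile normalization and 0.016 without the MIR6236-rich libraries, where KRT14 was 0.14 (bulk against sorted sh-NC) and 0.38 (interaction). On leaving out 1 library, KRT80 ranged from -0.25 to 0.072 (sorted sh-B7-H3 (2)), -0.31 to 0.016 (both) and -0.0059 to 0.32 (interaction), KRT20 from -0.0052 to 0.22 between shRNAs, KRT8 from -0.16 to 0.066, KRT18 from -0.051 to 0.16 and KRT14 from -0.46 to 0.017 for bulk against sorted sh-NC, and KRT14 from -0.37 to 0.34 for bulk against sorted sh-B7-H3 (1) and -0.52 to 0.19 for the interaction. The cause was not tested. KRT5, KRT17 and KRT23 rested on few estimated reads, and whether depth limited them was not tested.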
